A study of Mus musculus with 6 samples.

Results

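Synaptic and pan-neuronal genes, 36 of the 24411 genes analysed, were followed by name through a mouse brain pull-down experiment. They are a list of gene symbols named for their known roles, not picked by a measured value, and comprise 15 presynaptic genes, 6 postsynaptic genes, 5 genes of transmitter synthesis or vesicle loading and 10 general neuron genes. All 36 had counts in every library, from 111 to 70811 per gene, and all passed the filters on low counts. The study used RiboTag mice, whose cells carry HA-tagged Rpl22 on their ribosomes once Cre has acted, and pulled these ribosomes down with their RNA by immunoprecipitation (IP) for HA. The icKO mice carried NG2CreERTM, Ank3F/F and Rpl22HA/+, and the control mice carried NG2CreERTM and Rpl22HA/+ with no floxed Ank3, which encodes the scaffold protein ankyrin-G. Both genotypes received tamoxifen at 100 mg/kg per day on 5 days from 8 weeks of age and were taken 1 month later. Each sample pooled 3 whole brains. The 6 libraries were 2 icKO IPs, 2 control IPs, 1 icKO input and 1 control input, the input being 10% of the cleared homogenate. The driver, not the tissue taken, sets which cells carry the tag. NG2 is made by oligodendrocyte precursors and by pericytes, and both genotypes share the driver, the tag and the drug.

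Neurons release transmitter from vesicles that SNARE proteins, with complexins and a calcium sensor, fuse with the membrane at the active zone. Scaffold proteins hold receptors and kinases opposite that site in the postsynaptic density. Transcripts of these proteins are abundant in whole brain, and they are widely used to mark neurons in RNA from mixed tissue.

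Library totals ran from 18968806 to 23930812 counts, where 3 counts equal 0.125 to 0.158 CPM (counts scaled to library size). Ank3, the targeted gene, had 1164 and 1166 CPM in icKO IPs and 1386 and 1357 CPM in control IPs, against 347 CPM in the icKO input and 382 CPM in the control input. It was lower in icKO IPs by a log2 difference of -0.23 ± 0.02 (SE, adjusted p = 1.31e-10), and since its count covers the whole gene and the exons removed are not stated in the labels, it checks the labels only in part. The labels name oligodendrocytes for all libraries, inputs included, which were whole homogenate. In the IPs over both genotypes the precursor markers Pdgfra and Cspg4 stood 5.21 and 5.37 log2 units above input, and the myelin gene Mbp 2.22 units. Chi-square per degree of freedom, which is near 1 when libraries differ by sampling alone, was 2.11 within the icKO IPs, 2.19 within the control IPs and 69.2 between an icKO and a control IP.

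Most of the neuronal genes were depleted from the pull-down in both genotypes. Together they took 0.919% and 0.918% of counts in icKO IPs and 0.810% and 0.812% in control IPs, against 2.67% in the icKO input and 2.61% in the control input (exact binomial 95% half-widths of 0.00709 percentage points or less, counting error only). Of the 36 genes, 33 were lower in IP than in input, 1 was higher (Pclo) and 2 did not pass the test (Bsn and Shank1), with 35.1% of all genes tested called lower and 34.8% called higher (edgeR, adjusted p under 0.05). Their median log2 difference was -2.09, a 4.24-fold lower level, and that of all genes tested was 0.01. The difference of IP from input measures neither the number of neurons nor the RNA per neuron. Between genotypes, bulk samples cannot tell fewer cells of a type from less RNA per cell. With IP and input scaled to astrocyte, microglia and endothelial markers instead, which shifts all genes by a median of 1.51, 24 members were lower and 7 higher. Of all 15451 genes tested, 511 were called lower and 13315 higher under this scaling.

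Between genotypes the same genes moved in both directions. In icKO IPs 15 of the 36 rose and 9 fell against control IPs, and 12 did not pass, beside 22.1% of all genes tested called higher and 25.2% called lower. The members' median log2 difference was 0.06, that of all genes tested 0.0033, and the range ran from -0.31 for Rab3a to 0.65 for Shank1. All 6 postsynaptic genes rose (median 0.31). Of the 15 presynaptic genes 4 rose and 5 fell (median -0.03), of the 5 transmitter genes 3 rose and none fell (median 0.24), and of the 10 general neuron genes 2 rose and 4 fell (median -0.09). These directions hold relative to the bulk of genes. Overlap or non-overlap of the genotypes, where stated below, rests on 2 IPs each, and its share over all genes is not given. It describes the values and is not used as support. Scaled to mature oligodendrocyte markers, whose summed level was lower in icKO IPs, every gene shifts up by 0.706. All 36 were then called higher, as were 12813 of all 15069 genes tested. Scaled to library totals, which shifts the median of all genes by -0.083, 13 members were called higher and 15 lower, and their median turned to -0.03. Of all 15069 genes tested, 2409 were called higher and 4979 lower under library totals. Syn1, Sv2b, Sncb, Slc32a1, Eno2 and Thy1 were then called lower as well, and Cplx1 and Nrgn were no longer called higher.

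**Figure D1:**
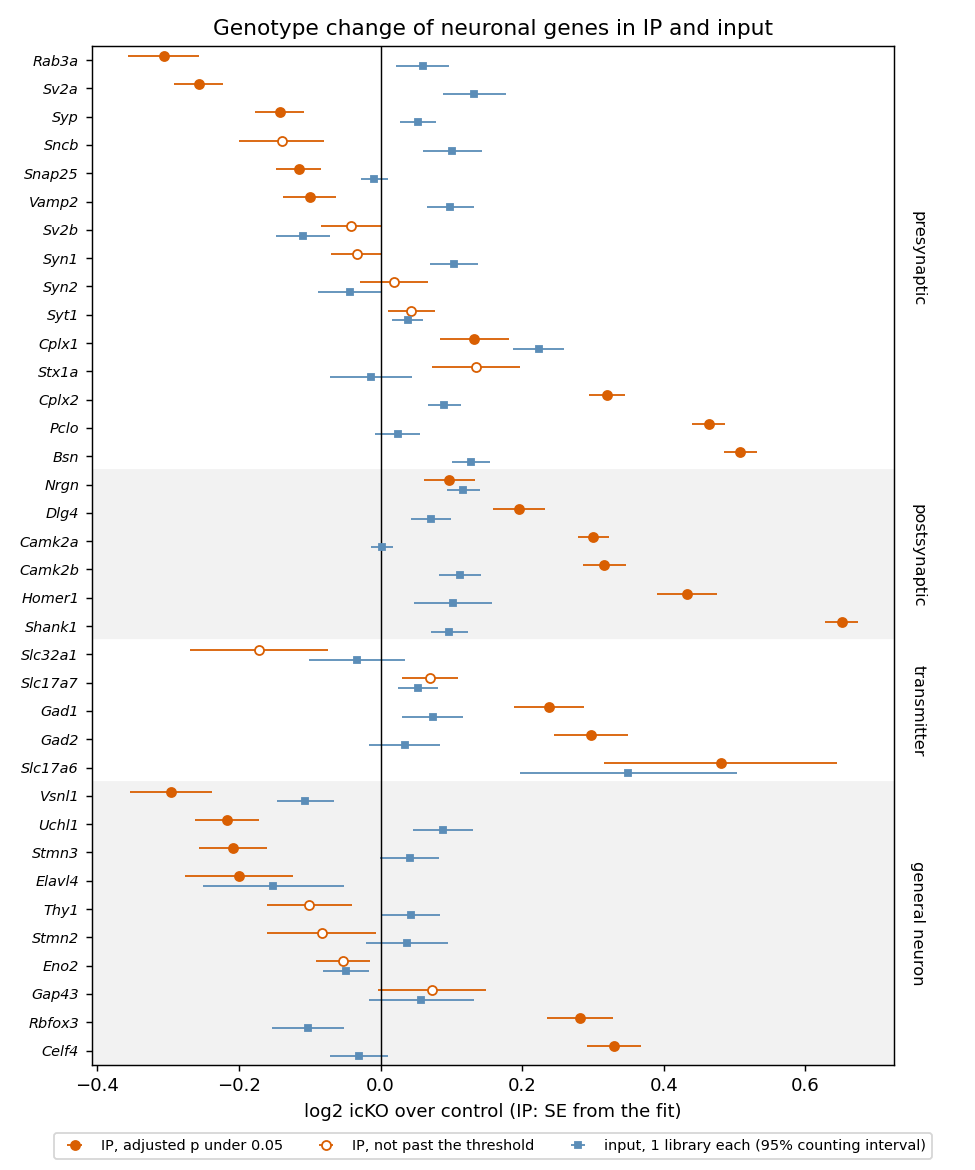
Log2 difference of each of the 36 genes between icKO and control, by role and ordered by value, in the IPs (circles with SE from the fit, filled where the adjusted p is under 0.05) and between the single inputs (squares with 95% counting intervals). Shank1 lies farthest to the right at 0.65 and Rab3a farthest to the left at -0.31, while the input values lie between -0.15 and 0.35.

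Among presynaptic genes the large active zone scaffolds Bassoon (Bsn) and Piccolo (Pclo) stood apart from the vesicle proteins. Bsn (chr9:108096022-108190384, minus strand, mm10) had 1331 and 1336 CPM in icKO IPs and 957 and 921 CPM in control IPs, against 1119 CPM in the icKO input and 1024 CPM in the control input. Both icKO IPs lay above every other library, while both control IPs lay below both inputs. Bsn rose by 0.51 ± 0.02 log2 units in icKO IPs (SE, adjusted p = 1.84e-18), a 1.42-fold higher level. Pclo (chr5:14514918-14863459, plus strand) had 1111 and 1116 CPM in icKO IPs and 818 and 799 CPM in control IPs, against 755 CPM in the icKO input and 742 CPM in the control input. All 4 IPs of Pclo lay above both inputs. It rose by 0.46 ± 0.02 (adjusted p = 2.12e-17), 1.38-fold. With transcript length fitted as an offset, the change was 0.17 for Bsn (adjusted p = 1.93e-07) and 0.06 for Pclo (adjusted p = 0.0346).

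Against input, the place of these scaffolds differed with the genotype whose IPs entered the comparison. Over both genotypes the log2 difference of IP from input was 0.34 ± 0.10 for Pclo (adjusted p = 0.012) and 0.06 ± 0.09 for Bsn (adjusted p = 0.582). Leaving out the control input leaves in effect the icKO IPs against the icKO input, where Pclo stood at 0.56 and Bsn at 0.25, both called higher. Leaving out the icKO input leaves the control IPs against the control input, where Pclo stood at 0.13, still called higher, and Bsn at -0.12, called lower. Between the inputs Bsn differed by 0.13 and Pclo by 0.02, less than between the IPs. With no genotype term Pclo no longer passed (adjusted p = 0.0816).

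The complexins, small proteins that clamp and promote SNARE fusion, were the other presynaptic genes that rose. Cplx2 had 648 and 637 CPM in icKO IPs and 515 and 516 CPM in control IPs, against 1369.9 CPM in the icKO input and 1287 CPM in the control input. It rose by 0.32 ± 0.03 in icKO IPs (adjusted p = 2.59e-12) while staying 2.31-fold lower in IP than in input. Cplx1 had 94.7 and 91.6 CPM in icKO IPs and 83.4 and 86.6 CPM in control IPs. Its rise of 0.13 ± 0.05 (adjusted p = 0.0251) did not pass without control IP replicate 1 (adjusted p = 0.188) or without icKO IP replicate 1 (adjusted p = 0.151), nor with DESeq2 (0.0833) or with no filter (0.0591), and was 0.05 under library totals (adjusted p = 0.458).

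The 5 presynaptic genes that fell encode proteins of the vesicle or its fusion machinery. So do the complexins, which rose, and Syt1, Stx1a, Syn1, Syn2 and Sv2b, which did not pass. Rab3a, a vesicle GTPase (chr8:70754679-70758677, plus strand), had 82.9 and 82.3 CPM in icKO IPs and 97.5 and 106.6 CPM in control IPs, against 538 CPM in the icKO input and 516 CPM in the control input. Every IP of Rab3a lay far below both inputs. It fell by 0.31 on the log2 scale (SE 0.05, adjusted p = 5.88e-06), and by 0.13 with the length offset (adjusted p = 0.0293).

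Sv2a, a vesicle glycoprotein, had 194 and 193 CPM in icKO IPs and 226 and 238 CPM in control IPs, against 404 CPM in the icKO input and 369 CPM in the control input. It fell by 0.26 (SE 0.03, adjusted p = 2.3e-07). Among the members it was the vesicle protein gene least depleted by the pull-down, with a log2 difference of IP from input of -0.87 ± 0.09. Syp, the vesicle protein synaptophysin, fell to 185 and 186 CPM in icKO IPs, against 203 and 207 CPM in control IPs, a log2 difference of -0.14 ± 0.03 (adjusted p = 0.000895). Under library totals it was -0.23.

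Snap25 and Vamp2, which encode a plasma membrane and a vesicle SNARE, changed less. Snap25 had 322 and 301 CPM in icKO IPs and 334 and 341 CPM in control IPs, against 2016 and 2028 CPM in the icKO and control inputs. The IPs did not overlap, but the log2 difference of -0.12 ± 0.03 (adjusted p = 0.00323) was -0.07 without icKO IP replicate 2 and no longer passed (adjusted p = 0.109). It was -0.20 under library totals. Vamp2 had 156 CPM in both icKO IPs and 169.8 and 165 CPM in control IPs. Its difference of -0.10 ± 0.04 (adjusted p = 0.0273) was lost without control IP replicate 1 (adjusted p = 0.185), icKO IP replicate 1 (0.0632) or icKO IP replicate 2 (0.0602). It was also lost with DESeq2 (0.0512), with the scaling to astrocyte, microglia and endothelial markers (0.0556), among genes of at least 5 CPM (0.108) and with the length offset (0.958), and stood at -0.19 under library totals.

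The remaining 6 presynaptic genes did not pass between genotypes. Syt1, the calcium sensor of fast release, had a log2 difference of 0.04 ± 0.03, with 351 and 323 CPM in icKO IPs and 322 and 333 CPM in control IPs, so that the genotypes overlapped. It was -0.02 without icKO IP replicate 1 (adjusted p = 0.697). Without icKO IP replicate 2 it was called higher (0.10, adjusted p = 0.0116), as it was among genes of at least 5 CPM (0.07, adjusted p = 0.0418). The values were 0.13 ± 0.06 for Stx1a, a plasma membrane SNARE, -0.03 ± 0.04 for Syn1 and 0.02 ± 0.05 for Syn2, synapsins that tether vesicles, -0.04 ± 0.04 for Sv2b and -0.14 ± 0.06 for Sncb, beta-synuclein. Sncb was called lower without icKO IP replicate 2 (-0.23, adjusted p = 0.00539) and with no filter (-0.16, adjusted p = 0.0271), but was -0.06 without icKO IP replicate 1 (adjusted p = 0.546). Stx1a was called higher among genes of at least 5 CPM (0.17, adjusted p = 0.0221). All 6 were lower in IP than in input, by 3.13-fold for Syn2 to 7.01-fold for Sncb.

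Promoter sequences are shown for the presynaptic genes with the largest rise and the largest fall in icKO IPs, Bsn and Rab3a. Both are RefSeq entries on GRCm38.p6, 5′ to 3′, from 250 bases before to 50 bases after the start of that entry. For Rab3a this start is not that of the GENCODE gene span given above. Capitals mark the GC box GGGCGG or its reverse complement CCGCCC. The Bsn entry is chr9:108190334-108190633 on the minus strand, and the Rab3a entry, the first of 2 listed for that gene, is chr8:70754453-70754752 on the plus strand.
Bsn: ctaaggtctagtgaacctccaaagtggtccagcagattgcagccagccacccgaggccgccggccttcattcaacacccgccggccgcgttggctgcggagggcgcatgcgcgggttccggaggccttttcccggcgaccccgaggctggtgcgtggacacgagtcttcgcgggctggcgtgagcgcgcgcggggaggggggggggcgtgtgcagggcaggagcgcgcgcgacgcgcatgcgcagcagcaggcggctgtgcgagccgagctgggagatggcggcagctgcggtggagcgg
Rab3a: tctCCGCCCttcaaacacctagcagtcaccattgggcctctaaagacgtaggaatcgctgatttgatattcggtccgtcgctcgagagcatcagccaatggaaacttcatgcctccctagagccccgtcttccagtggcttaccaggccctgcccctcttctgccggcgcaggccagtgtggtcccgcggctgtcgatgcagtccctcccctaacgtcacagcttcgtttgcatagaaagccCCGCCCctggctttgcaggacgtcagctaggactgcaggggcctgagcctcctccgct
The Bsn window was 72.3% G or C with no GC box, and the Rab3a window was 60.0% G or C with 2 GC boxes. Of the 36 genes, 28 had a promoter entry, and 17 of these (60.7%) held a GC box, against 38.2% of 27025 genes with an entry. The TATA box TATAAA was in 3 of 28 (10.7%, against 15.7%), and the cAMP response element TGACGTCA in 1, Syn1 (3.6%, against 2.03%). All were searched on both strands. The GC box genes included risers (Pclo, Camk2b, Dlg4, Cplx1, Nrgn, Slc17a6, Gad1) and genes that fell (Rab3a, Sv2a, Syp, Vsnl1). The others did not pass between the IPs (Syt1, Stx1a, Syn2, Sv2b, Sncb, Slc17a7).

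The 6 postsynaptic genes all rose in icKO IPs. Shank1, a master scaffold of the postsynaptic density (chr7:44310253-44360572, plus strand), had 1321 and 1350.4 CPM in icKO IPs and 857 and 847 CPM in control IPs, against 1176 CPM in the icKO input and 1099 CPM in the control input. Its icKO IPs lay above both inputs and its control IPs below them. It rose by 0.65 ± 0.02 (adjusted p = 1.2e-21), 1.57-fold, and by 0.46 with the length offset. Against input over both genotypes it did not pass (-0.10 ± 0.11, adjusted p = 0.441). Without the control input, which leaves in effect the icKO libraries, it was 0.18 and called higher. Without the icKO input, which leaves the control libraries, it was -0.36 and called lower. The inputs themselves differed by 0.10.

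Homer1, an adaptor between receptors and scaffolds, had 148 and 143 CPM in icKO IPs and 105 and 111 CPM in control IPs, against 258 CPM in the icKO input and 240.4 CPM in the control input. It rose by 0.43 ± 0.04 (adjusted p = 3.36e-10). Camk2a and Camk2b encode subunits of the calcium-dependent kinase that is among the most abundant proteins of the postsynaptic density. Camk2a had 1206 and 1208 CPM in icKO IPs and 981 CPM in both control IPs, against 3232 CPM in the icKO input and 3228 CPM in the control input. Camk2b had 329 and 331 CPM in icKO IPs and 262 and 269 CPM in control IPs. Camk2a and Camk2b rose by 0.30 ± 0.02 and 0.32 ± 0.03 (adjusted p = 4.79e-13 and 1.81e-10).

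Dlg4, the scaffold PSD-95, had 220.1 and 242 CPM in icKO IPs and 201 and 202 CPM in control IPs. It rose by 0.195 ± 0.04 (adjusted p = 4.94e-05), by 0.13 without icKO IP replicate 2, by 0.11 under library totals and by 0.11 with the length offset, and passed in each. Nrgn, neurogranin, a calmodulin-binding protein of dendritic spines, was the most depleted of the 36 genes, with 178 CPM in both icKO IPs and 166 and 167 CPM in control IPs, against 1398 CPM in the icKO input and 1289 CPM in the control input. Its IP level was 7.81-fold below input (log2 difference -2.97 ± 0.06, adjusted p = 2.93e-09). Between genotypes it rose by 0.10 ± 0.04 (adjusted p = 0.0263), a call lost without any 1 of the 4 IP libraries (adjusted p of 0.0708 to 0.118), with DESeq2 (0.0824), with no filter (0.0859) and under library totals (0.01, adjusted p = 0.831). With the length offset its rise was 0.28 (adjusted p = 8.27e-08).

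All 5 transmitter genes were lower in IP than in input, with a median log2 difference of -2.34. Gad1 and Gad2, the enzymes that make GABA, had 111 and 109 CPM and 84.8 and 83.6 CPM in icKO IPs, against 88.2 and 98.7 CPM and 68.0 and 69.2 CPM in control IPs. Gad1 and Gad2 rose by 0.24 ± 0.05 and 0.30 ± 0.05 (adjusted p = 0.000171 and 1.48e-05). Gad1 rose by 0.15 under library totals (adjusted p = 0.0122). Slc32a1, which loads GABA into vesicles, had 21.8 and 23.9 CPM in icKO IPs and 28.3 and 23.3 CPM in control IPs, so that the genotypes overlapped. Its log2 difference of -0.17 ± 0.10 did not pass (adjusted p = 0.151), and depended on the control IPs, at -0.31 without control IP replicate 2 (adjusted p = 0.0178) and -0.03 without control IP replicate 1 (adjusted p = 0.857).

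Of the vesicular glutamate transporters, Slc17a7 had 166 and 158 CPM in icKO IPs and 150.3 and 158 CPM in control IPs, against 935 CPM in the icKO input and 901 CPM in the control input. The IPs of the genotypes overlapped, and the log2 difference of 0.07 ± 0.04 did not pass (adjusted p = 0.144), though it did among genes of at least 5 CPM (0.10, adjusted p = 0.0229). Slc17a6 was the lowest of all 36 genes, also per length, with 7.45 and 8.00 CPM in icKO IPs and 5.29 and 5.78 CPM in control IPs, against 37.5 CPM in the icKO input and 29.5 CPM in the control input. It rose by 0.48 ± 0.16 (adjusted p = 0.0162), a call lost without control IP replicate 1 (adjusted p = 0.0797), without icKO IP replicate 2 (0.0908) and with DESeq2 (0.0736). The inputs differed by 0.35 in the same direction (95% counting interval 0.20 to 0.50).

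All 10 general neuron genes were lower in IP than in input, with a median of -2.15. Least depleted was Elavl4, a neuronal RNA-binding protein, at -1.21 ± 0.07, and most depleted was Thy1, a surface glycoprotein of projection neurons, at -2.95 ± 0.07. The nuclear splicing factor Rbfox3 (NeuN) had 115 and 111 CPM in icKO IPs and 90.4 and 96.1 CPM in control IPs, against 288 CPM in the icKO input and 309 CPM in the control input. Celf4, an RNA-binding protein, had 164 and 165 CPM in icKO IPs and 131 and 130.4 CPM in control IPs, against 452 CPM in the icKO input and 461 CPM in the control input. Both rose in the IPs, by 0.28 ± 0.05 and 0.33 ± 0.04 (adjusted p = 7.1e-06 and 1.21e-08), while their inputs differed by -0.10 and -0.03.

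The other direction was seen for Vsnl1, Uchl1, Stmn3 and Elavl4. Vsnl1, a neuronal calcium sensor, had 62.6 and 56.7 CPM in icKO IPs and 74.1 and 72.5 CPM in control IPs, and fell by 0.30 (SE 0.06, adjusted p = 7.63e-05), or by 0.16 with the length offset (adjusted p = 0.0213). Uchl1, a ubiquitin hydrolase, had 95.3 and 93.5 CPM in icKO IPs and 110.5 and 109 CPM in control IPs, and fell by 0.22 (SE 0.05, adjusted p = 0.000181). Stmn3, a microtubule-destabilizing stathmin, had 85.5 and 83.2 CPM in icKO IPs and 98.1 and 97.1 CPM in control IPs, and fell by 0.21 (SE 0.05, adjusted p = 0.000527). With the length offset the differences of Uchl1 and Stmn3 turned to 0.0059 and 0.02 and did not pass (adjusted p = 0.931 and 0.768). Elavl4 had 30.3 and 32.2 CPM in icKO IPs and 36.9 and 35.0 CPM in control IPs. Its fall of 0.20 (SE 0.08, adjusted p = 0.0313) was lost without control IP replicate 1 (adjusted p = 0.176), without icKO IP replicate 1 (0.182), with DESeq2 (0.0915) and among genes of at least 5 CPM (0.0569). Stmn2 (-0.08 ± 0.08), the glycolytic enzyme Eno2 (-0.05 ± 0.04), Thy1 (-0.10 ± 0.06) and the growth cone protein Gap43 (0.07 ± 0.08) did not pass.

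**Figure D2:**
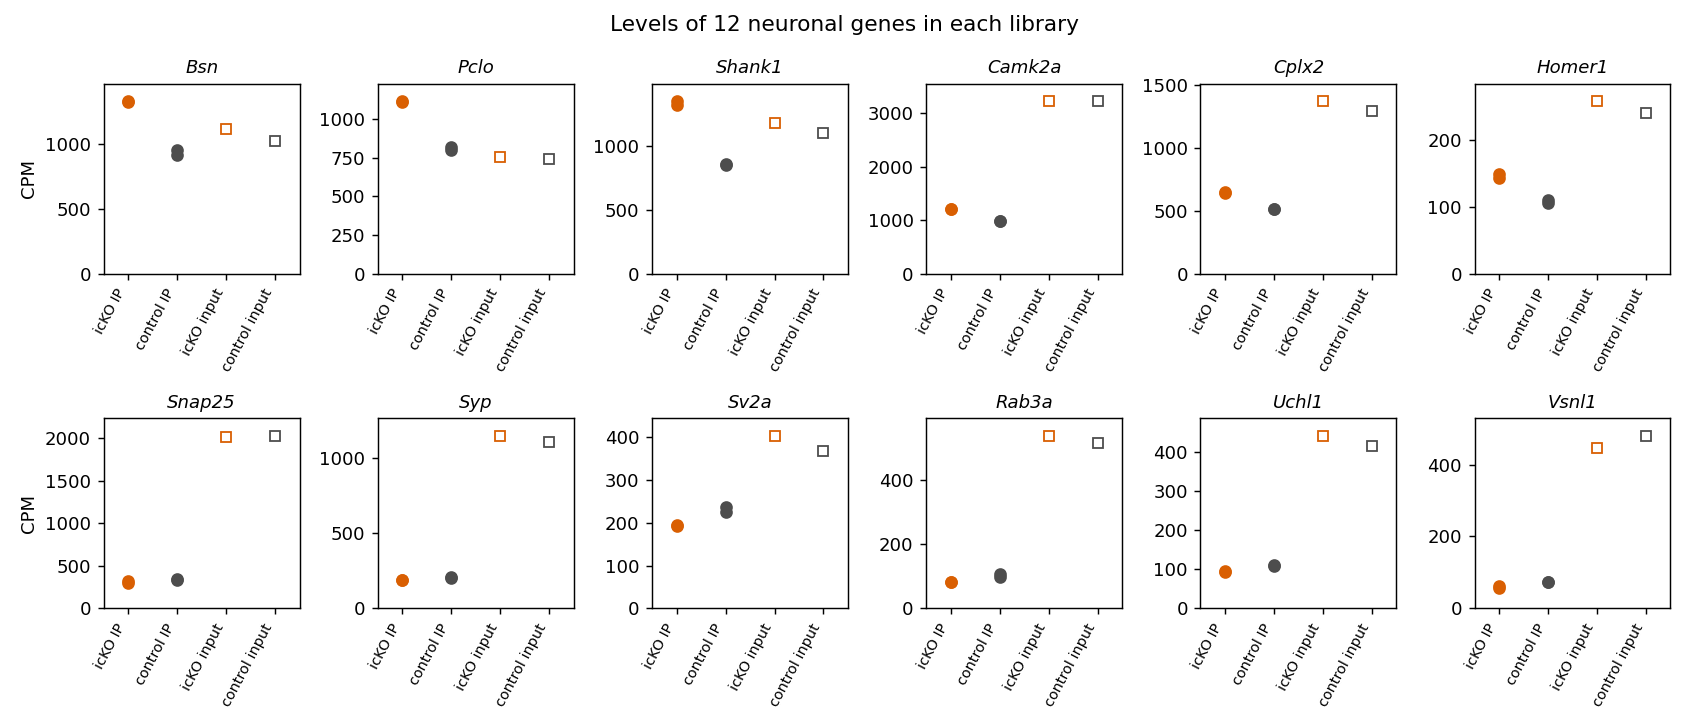
CPM of 12 of the genes in every library, 1 panel each with its own axis from 0, with circles for the IPs and open squares for the single inputs. In the upper row the icKO IPs lie above the control IPs and in the lower row below them, and only for Bsn, Pclo and Shank1 do the IPs reach the level of the inputs.

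Of the 15 calls of a rise, 12 held under every alternative tried (Bsn, Pclo, Cplx2, Shank1, Homer1, Camk2a, Camk2b, Dlg4, Gad1, Gad2, Rbfox3 and Celf4). Of the 9 calls of a fall, 4 held under every alternative other than the scaling to mature oligodendrocyte markers (Rab3a, Sv2a, Syp and Vsnl1), and none held under that one. That scaling adds 0.706 to every gene by construction, more than the largest fall. It could thus not undo a rise and had to undo every fall. With that scaling left out, the rises that held were again 12. The share of calls that held over all genes is not given.

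Within each genotype the IPs were also set against their own input. In icKO, 33 of the 36 genes were lower in IP than in the icKO input and 3 were higher, Pclo at 0.56 ± 0.03, Bsn at 0.26 ± 0.03 and Shank1 at 0.19 ± 0.03 (34.8% of all genes tested were called lower and 34.7% higher). In controls, 35 were lower than in the control input and 1 was higher, Pclo at 0.13 ± 0.03 (33.9% called lower and 34.4% higher). Bsn was -0.12 ± 0.03 and Shank1 -0.36 ± 0.03 in controls. The medians were -2.07 in icKO and -2.09 in controls. With 1 input per genotype, the spread of each input was taken from the IP pairs, so an offset of a single input library would enter these values and cannot be told apart from the pull-down.

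The test of the difference itself compared the genotype change in the IPs with that between inputs. It was higher for 10 of the 36 genes, lower for 9 and did not pass for 17, with 9.67% of all genes tested called higher and 13.9% lower. This fit too takes the spread of the single inputs from the IP pairs, and the input difference has no replicate check. The 10 included 4 of 6 postsynaptic genes, led by Shank1 at 0.55 ± 0.04 (adjusted p = 3.54e-12), and the active zone scaffolds Pclo at 0.43 ± 0.04 and Bsn at 0.37 ± 0.04 (adjusted p = 1.49e-09 and 1.85e-08). The 9 included 6 presynaptic genes, led by Sv2a at -0.395 ± 0.05 (adjusted p = 2.41e-06) and Rab3a at -0.37 ± 0.06 (adjusted p = 4.1e-05). For Sv2a, the inputs differed by 0.13 upwards in icKO while the IPs differed downwards. The member genes not called here included Cplx1, Nrgn, Dlg4, Slc17a6 and Gad1, which had risen between the IPs.

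**Figure D3:**
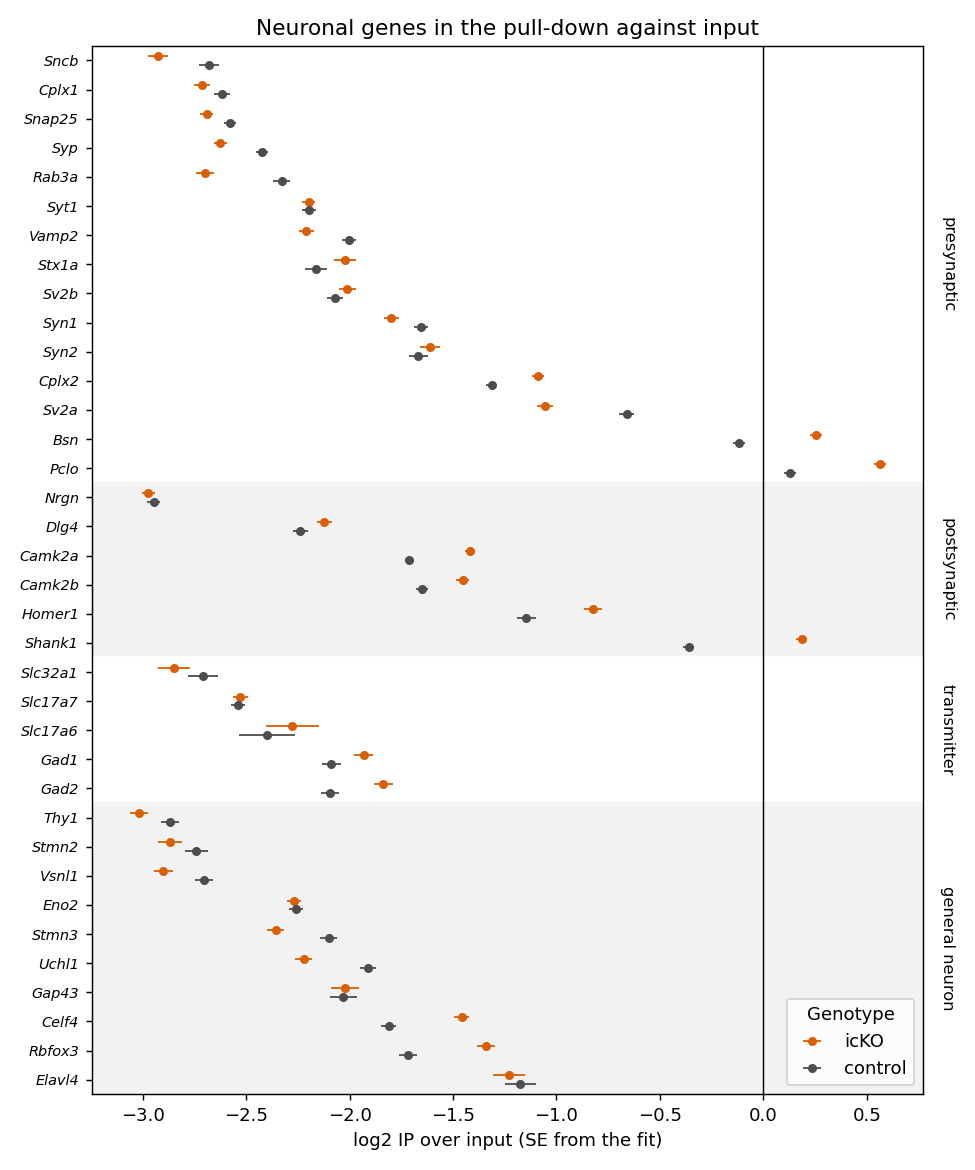
Log2 difference of IP from input of each of the 36 genes in icKO and in controls, by role and ordered by the mean of both, with SE from a fit of all 4 groups. Most genes lie between -3 and -1 in both genotypes, and only Pclo, Bsn and Shank1 cross 0, in icKO at 0.56, 0.26 and 0.19.

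The input libraries, 1 each and compared with each other without a test, differed little in the member genes. Over the 36 genes the median log2 difference of the icKO from the control input was 0.05, with 26 of 36 above 0. For 15769 genes with at least 10 counts over the inputs the median was 0.01, with 8263 above 0. Values ran from -0.15 for Elavl4 to 0.35 for Slc17a6. The summed level of the members was 25924 CPM in the icKO input and 25094 CPM in the control input, a log2 ratio of 0.047 (95% interval 0.0416 to 0.0524, counting error only).

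In the pull-down, the summed level was 9624 ± 26.7 CPM in icKO IPs and 8015 ± 6.59 CPM in control IPs (SD, n = 2 each), 1.20-fold higher in icKO. Shank1, Bsn, Pclo, Camk2a and Cplx2 carried 1536 of the 1609 CPM by which the means differed, or 95.4%. The summed postsynaptic level was 3427 ± 35.6 CPM in icKO IPs and 2574 ± 3.01 CPM in control IPs (1.33-fold), the presynaptic level 4998 ± 44.0 and 4277 ± 7.98 CPM (1.17-fold), and the transmitter level 387 ± 6.37 and 348 ± 10.5 CPM (1.11-fold). The general neuron genes summed to 813 ± 12.0 CPM in icKO IPs and 816 ± 1.03 CPM in control IPs, a difference within the spread of replicates. This rests on the TMM factors. As a share of counts they were lower in icKO IPs, at 0.0782% and 0.0768%, against 0.0824% and 0.0827% in control IPs.

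Some marker lists of other cell types moved as well. Summed mature oligodendrocyte markers stood at 17205 CPM in icKO IPs and 28093 CPM in control IPs (0.61 times), precursor markers at 8157 and 9424 CPM (0.87 times) and pericyte markers at 1046 and 1966 CPM (0.53 times). Of the types the pull-down depletes, astrocyte markers summed to 2459 CPM in icKO IPs and 2425 CPM in control IPs (1.01 times). Microglia markers summed to 118 and 105 CPM (1.13 times) and endothelial markers to 289 and 365 CPM (0.79 times). In the icKO and control inputs, astrocyte markers summed to 7301 and 6927 CPM, microglia markers to 391 and 408 CPM and endothelial markers to 614 and 710 CPM. Endothelial markers were thus lower in the icKO input too (median log2 difference -0.31, 1 of 15 above 0, beside 8263 of 15769 genes with at least 10 counts over the inputs). In icKO IPs 8 of 15 astrocyte markers rose and 3 fell, with a median of 0.22. Of 15 microglia markers 3 rose and 2 fell, and of 15 endothelial markers 2 rose and 4 fell. Of all genes tested 22.1% were called higher and 25.2% lower, so the microglia and endothelial counts did not stand out. Of 20 mature oligodendrocyte markers 19 fell and 1 rose, of 13 precursor markers 9 fell and 1 rose, and of 10 pericyte markers all fell. No defining marker named was at 0, with Cldn5 lowest at 2.04 and 1.49 CPM in icKO IPs and 2.43 and 2.23 CPM in control IPs. The part of these shifts in the neuronal values was not tested.

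Against input the astrocyte markers were all lower in IP (median -1.87), as were 14 of 15 microglia markers (median -2.32), beside the -2.09 of the neuronal genes. Gja1, an astrocyte connexin, had 18.6 and 17.5 CPM in icKO IPs and 17.7 and 17.95 CPM in control IPs, against 154 CPM in the icKO input and 142 CPM in the control input. The precursor markers (13 of 13), pericyte markers (10 of 10) and mature oligodendrocyte markers (19 of 20) were higher in IP, with medians of 3.97, 3.44 and 2.48.

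**Figure D4:**
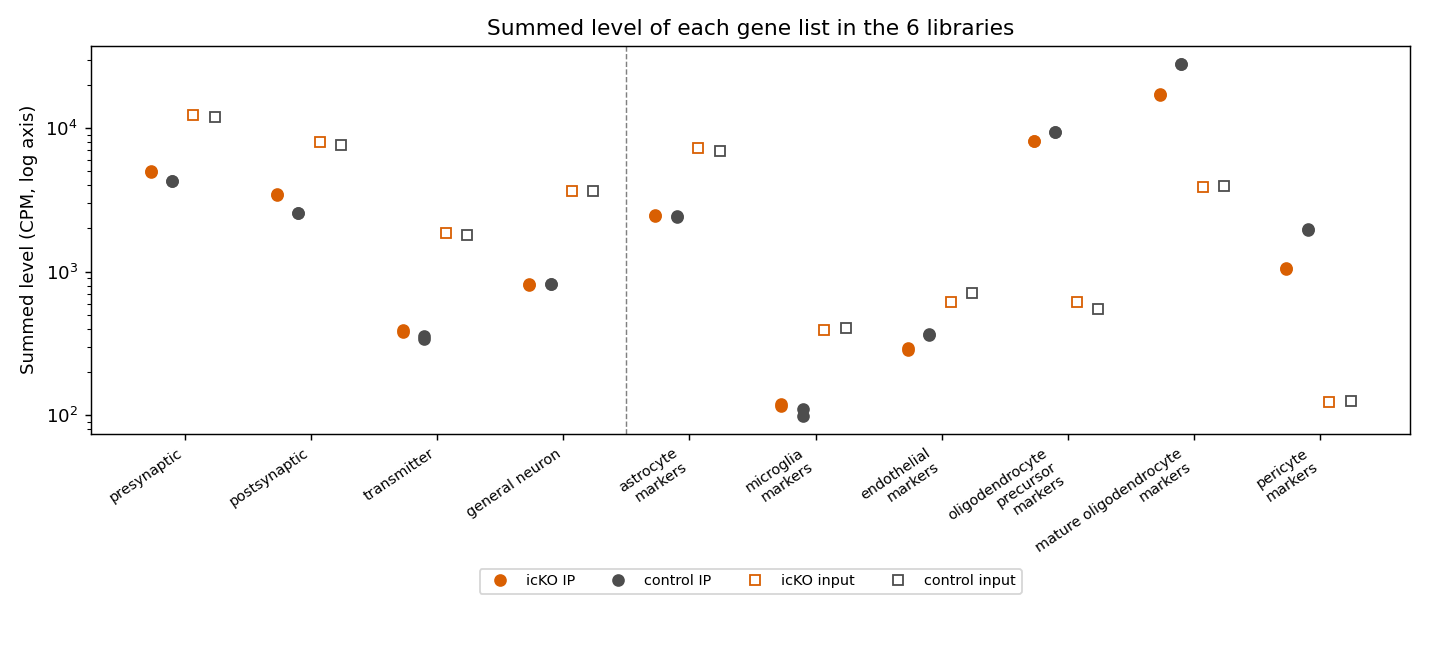
Summed CPM (log axis) of the 4 role groups and, right of the dashed line, of 6 marker lists of other cell types, with circles for the IPs and open squares for the single inputs. The neuronal groups, astrocyte, microglia and endothelial lists lie below their inputs in the IPs, while the precursor, mature oligodendrocyte and pericyte lists lie above.

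Across roles, the values of the members followed transcript length. The 12 genes with the shortest longest-annotated transcripts (1136 to 2795 bases) had a median log2 difference between icKO and control IPs of -0.10, with 2 higher and 5 lower. The 12 of middle length (2797 to 4149 bases) had a median of 0.04, with 5 higher and 2 lower, and the 12 longest (4334 to 20084 bases) a median of 0.30, with 8 higher and 2 lower. Depletion followed the same order, with median differences of IP from input of -2.40, -1.88 and -1.39 from the shortest to the longest genes. Spearman's rho of length with the genotype change was 0.61 over the 36 genes and 0.50 over 33 without Bsn, Pclo and Shank1, and with the difference of IP from input 0.64 and 0.53. Over all genes with a length it was 0.213 for the genotype change (14492 genes) and 0.186 for IP against input (14863 genes). These are descriptions over genes that share the same libraries.

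With length as an offset, 18 members were called higher and 6 lower in icKO IPs, against 15 and 9 without it, and 3035 and 3523 of all 15069 genes tested were called higher and lower with it. Stx1a (0.24, adjusted p = 0.00238), Gap43 (0.26, adjusted p = 0.00591) and Slc17a7 (0.10, adjusted p = 0.0486) were then called higher, and Vamp2, Stmn3 and Uchl1 were no longer called lower. The 6 postsynaptic genes stayed higher, with Pclo and Bsn reduced as given above.

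**Figure D5:**
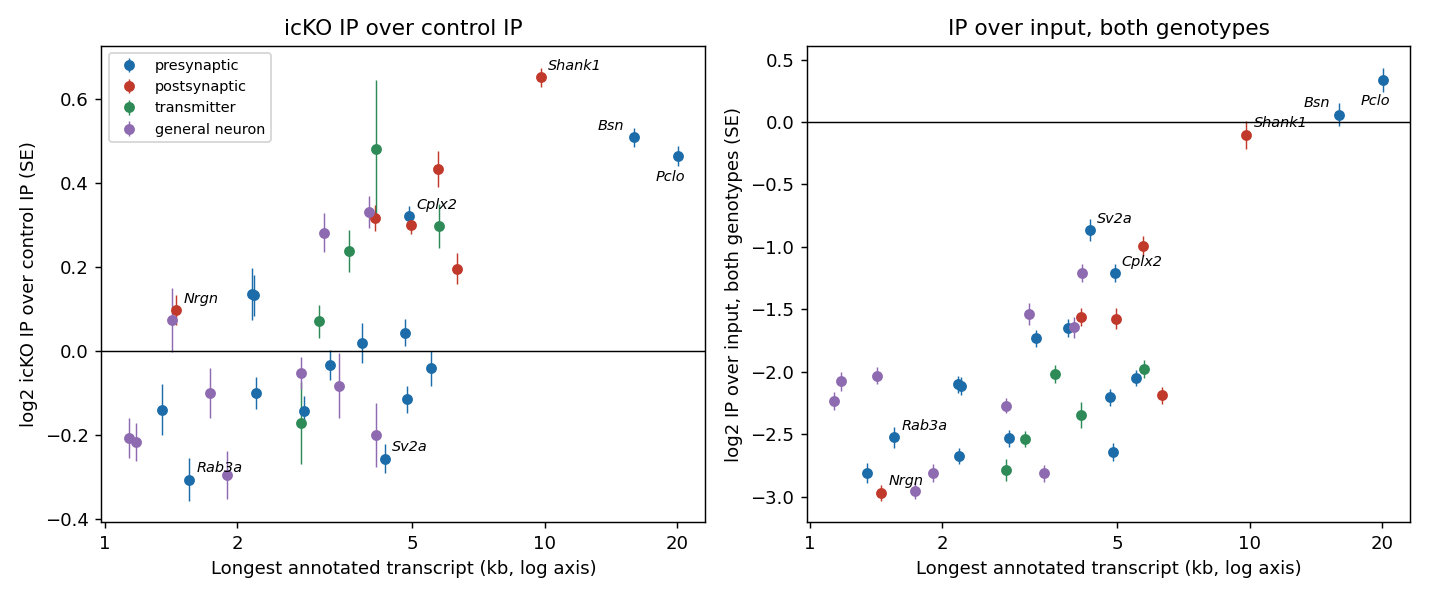
Log2 difference with SE of each of the 36 genes against the length of its longest annotated transcript (kb, log axis), between genotypes in the IPs on the left and between IP and input on the right, coloured by role. The 3 longest genes, Shank1, Bsn and Pclo, lie highest in the right panel and among the 4 highest in the left one, beside Slc17a6 at 0.48, and the short gene Nrgn lies lowest on the right at -2.97 but above 0 on the left at 0.10.

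Levels per kilobase of longest transcript put the members in another order. In the inputs Nrgn was first, at 962 CPM per kb in icKO and 887 CPM per kb in control, followed by Camk2a, Snap25, Syp and Stmn3, with Slc17a6 last. In icKO IPs Camk2a was first at 243 CPM per kb in both libraries, followed by Shank1, Cplx2, Nrgn and Bsn. In control IPs Camk2a was first at 197 CPM per kb in both, followed by Nrgn, Cplx2, Uchl1 and Shank1. Per length, Shank1 had 134 and 137 CPM per kb in icKO IPs and 87.2 and 86.2 CPM per kb in control IPs, and Pclo stood no higher than place 14 in any IP.

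Other genes of the same pathways gave a wider view, 144 in 5 lists, of which 137 were tested between the IPs. Of these, 66 rose and 26 fell in icKO IPs, with a median of 0.14, beside the 22.1% of all genes tested called higher and 25.2% called lower. Postsynaptic density genes rose in 17 of 28 and fell in 2, active zone and adhesion genes rose in 15 of 25 and fell in 4, and vesicle and release genes rose in 12 of 31 and fell in 4. Other general neuron genes rose in 20 of 40 and fell in 13, and other transmitter genes rose in 2 of 13 and fell in 3.

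Among them Kalrn, a guanine nucleotide exchange factor of spines, had 1952 and 1961 CPM in icKO IPs and 1140.4 and 1099 CPM in control IPs, a rise of 0.81 ± 0.02. Nefh, the heavy neurofilament, rose by 0.89 ± 0.05 with 146 and 141 CPM in icKO IPs and 79.4 and 75.8 CPM in control IPs. Chat, which makes acetylcholine, rose by 0.90 ± 0.35 at low levels, 1.88 and 2.48 CPM in icKO IPs and 1.05 and 1.28 CPM in control IPs (adjusted p = 0.0328). The largest falls were those of Ddc, an enzyme of amine synthesis (-0.85 ± 0.10), Stmn1, a stathmin (-0.77 ± 0.04), and Cplx3, a complexin (-0.67 ± 0.22, adjusted p = 0.0113).

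Against input, 20 of 139 of these genes were higher in IP and 103 lower, with a median of -1.06, beside 34.8% of all genes tested called higher and 35.1% called lower. Vesicle and release genes were lower in 30 of 31 and higher in none, while active zone and adhesion genes were lower in 12 of 25 and higher in 8, shares nearer to those of all genes. Lowest were Pcp4, a calmodulin regulator, at -2.91 ± 0.07 and Rab3b at -2.83 ± 0.13. Highest were Ddc at 1.95 ± 0.14, Unc13b, a vesicle priming factor, at 1.84 ± 0.09 and Dcx, a microtubule protein of migrating neurons, at 1.27 ± 0.08. Unc13b had 171 and 174 CPM in icKO IPs and 136 and 137 CPM in control IPs, against 42.6 CPM in the icKO input and 43.1 CPM in the control input.

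Counting can bear on a few members. Syn1, Syn2, Sv2b, Rab3a, Shank1 and Uchl1 share 9 to 339 exonic bases with a gene on the opposite strand, and whether the counter used strand is not given in the sources used here. For Shank1, with 339 shared bases, and Uchl1, with 295, the partner gene itself had at most 20 and 12 counts in any library.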

How the data were processed

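RNA of 6 whole-brain RiboTag samples was sequenced from low-input stranded total RNA libraries, per the labels. The authors deposited raw read counts per gene. Trimmomatic 0.39, STAR 2.7.10b and the build mm10 are named in the submitters' processing notes. Which counter and annotation were used, whether strand was used, and how PCR duplicates were handled is not given in the sources used here. Of 24421 genes, 10 without a value in the inputs were left out.

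With TMM scaling, edgeR 4.0.16 (R 4.3.3, limma 3.58.1) gave quasi-likelihood F tests on the counts (two-sided, filterByExpr, Benjamini-Hochberg adjustment over all genes tested, adjusted p under 0.05). The icKO IPs were compared with the control IPs in a fit of these 4 libraries (15069 genes, biological coefficient of variation 3.01%), and IP with input over all 6 libraries with a genotype term (15451 genes). Within-genotype values and the difference between the genotype changes came from a fit of 4 groups (15936 genes). Standard errors are the log2 difference divided by the root of F. CPM values of single libraries use TMM factors of all 6 libraries. Inputs were compared by log2 CPM with a prior count of 2. Transcript lengths and gene spans are those of GENCODE for GRCm38, found for 95.7% of genes, and the length offset is a lowess fit (span 0.3), on transcript length, of each library's deviation from the gene's mean log2 CPM. Intervals cover counting error only. Scripts were tested on simulated data.

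The labels call the IPs biological replicates but do not say whether the pools held different mice, so p-values measure only how far these samples spread, which may be a technical spread. One icKO IP is titled cKO, and its genotype label reads AnkG icKO. The members and lists were chosen with earlier results of these data known. All 36 members are named. Of the other pathway genes, the 3 largest rises and 3 largest falls per comparison are named, taken from genes that passed the test and averaged at least 1 CPM over the IPs. Some genes that this rule or the marker lists would name are not reported here. Alternatives were DESeq2 1.42.0 (test and size factors), library totals, scaling to marker lists, other filters, the length offset, no genotype term, a replicate block and leaving out each library.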

Additional observations from a re-analysis of the deposited data

Results flagged for a closer look

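For 19 of the 36 genes the genotype change in the IPs differed from that between the inputs (edgeR, adjusted p under 0.05 over all genes tested), where the spread of the single inputs was taken from the IPs and the input difference has no replicate check. The log2 difference was above 0 for the postsynaptic genes Shank1 (0.55), Homer1 (0.32), Camk2a (0.29) and Camk2b (0.20). It was also above 0 for the presynaptic genes Pclo (0.43), Bsn (0.37) and Cplx2 (0.22), for Gad2 (0.26), and for the RNA-binding proteins Rbfox3 (0.38) and Celf4 (0.35). It was below 0 for the presynaptic genes Sv2a (-0.395), Rab3a (-0.37), Sncb (-0.25), Vamp2 (-0.205), Syp (-0.20) and Syn1 (-0.14), and for the general neuron genes Uchl1 (-0.31), Stmn3 (-0.26) and Vsnl1 (-0.20). Syn1 and Sncb had not passed between the IPs alone. Counts for settings that left out 1 IP library are not given, as these leave 1 library in a group.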

How the results depend on the processing

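Over 13 settings a comparison, single members kept their direction and their side of the threshold in 391 values between the IPs. Another 28 turned in direction, and of those that did not turn, 27 lost their call and 22 gained one. Against input 451 were kept and 8 turned, while 6 lost and 3 gained a call without a turn. Calls that turned values lost or gained are not in these counts. Between the IPs, library totals gave 15 members lower, beside 4979 of all 15069 genes tested, and a median of -0.0294. They turned Syt1 (-0.0428), Syn2 (-0.0678), Slc17a7 (-0.0160) and Gap43 (-0.0132). Scaling to mature oligodendrocyte markers, which by construction adds 0.706 to every gene, called 36 members higher and 0 lower, beside 12813 and 100 of all genes. It turned Snap25 (0.59), Syp (0.56), Vamp2 (0.61), Syn1 (0.67), Sv2a (0.45), Sv2b (0.66), Rab3a (0.40), Sncb (0.57), Slc32a1 (0.53), Stmn2 (0.62), Stmn3 (0.50), Vsnl1 (0.41), Eno2 (0.65), Thy1 (0.60), Uchl1 (0.49) and Elavl4 (0.51). The length offset turned Syt1 (-0.0015), Sncb (0.0574), Stmn3 (0.0201), Thy1 (0.0509) and Uchl1 (0.0059). Leaving out 1 IP library moved Syt1 between -0.0196 and 0.101, Syn1 between -0.0784 and 0.0061 and Syn2 between -0.0696 and 0.111.

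Against input, 0 members were higher with no genotype term, beside 4935 of all 15451 genes tested. When scaled to astrocyte, microglia and endothelial markers, 7 were higher, beside 13315 of all 15451 genes tested. That scaling turned Sv2a (0.64), Cplx2 (0.30), Shank1 (1.40), Homer1 (0.51) and Elavl4 (0.30). Bsn turned under library totals (-0.0134). With 1 library left out, Bsn lay between -0.12 and 0.25 and Shank1 between -0.36 and 0.18. The cause of these changes was not tested. The log2 ratio of summed input counts was 0.0371 under library totals and 0.0536 without Camk2a. With the 45S ribosomal RNA gene left out of the totals, the members' share was 0.940% and 0.938% in icKO IPs, 0.831% and 0.834% in control IPs, 2.77% in the icKO input and 2.71% in the control input. The lead of Nrgn per length in the control input was 887 CPM per kb also with the mean length of its protein-coding basic transcripts.

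The replicate numbers carry no stated pairing, and the deviations of equally numbered libraries did not correlate (-0.0031 over genes). With the number as a replicate block, 15 members were called higher and 10 lower, the added one being Sncb, and 7277 genes were called, against 7119 without the block. With 1 input per genotype, differences between the inputs have no replicate check, and the 2 IPs per genotype leave 2 residual degrees of freedom. The totals without 45S, the second transcript length, and the settings for the within-genotype counts and the members' median were chosen after seeing the data.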

Other observations

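Several genes of amine transmitters, which in brain are made in small nuclei, had few counts in whole-brain libraries. Slc6a4, the serotonin transporter, had 0 counts in both icKO IPs and 1 count in each control IP, and Slc6a2, the noradrenaline transporter, had at most 1 count in any library. Dbh, which makes noradrenaline, had 5 and 2 counts in icKO IPs and 2 and 0 counts in control IPs, against 21 counts in the icKO input and 0 counts in the control input. Th, the first enzyme of catecholamine synthesis, had 27 and 49 counts in icKO IPs and 39 and 54 counts in control IPs, against 73 counts in the icKO input and 58 counts in the control input. Ddc, which acts after Th, was in contrast higher in IP than in input, with 14.4 and 12.9 CPM in icKO IPs and 25.3 and 23.9 CPM in control IPs, against 4.09 CPM in the icKO input and 5.65 CPM in the control input. These genes were singled out after their values were seen, apart from Ddc.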
